A study of Homo sapiens with 12 samples.

Results

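The ADAM, ADAMTS, MMP and TIMP genes encode metalloproteinases that cut extracellular matrix and cell-surface proteins, together with the inhibitors of these enzymes. Members were all genes in the deposited lists of acetylated RNA sites whose symbol starts with ADAM and a digit, ADAMTS, MMP and a digit, or TIMP and a digit. The rule used names and no measured value, but these gene families were picked with earlier results of these data known. They numbered 27 of the 10252 genes that held a site in at least 1 list. RefSeq lists 73 protein-coding genes with such names, so 46 had no site in any list. By group, sites lay in 8 of 20 ADAM genes, 5 of 19 ADAMTS genes, 4 of 5 ADAMTSL genes (ADAMTS-like proteins without a protease domain), 7 of 25 MMP genes and 3 of 4 TIMP genes. The 25 genes with MMP names include MMP24OS and the readthrough gene MMP24-AS1-EDEM2, which encode no matrix metalloproteinase.

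The samples came from HK-2, an established cell line from the human renal tubule that is used as a model of its epithelium. One genotype was a wild-type control (WT) and the other a NAT10 knockout (KO), called a knockdown in the text that accompanies the series, with no drug or time course in the labels. NAT10 is the enzyme that places N4-acetylcytidine (ac4C) on RNA, and the series title asks about its part in renal fibrosis. Each genotype had 3 samples, and for each sample fragmented RNA was sequenced before (input) and after (IP) pull-down with an ac4C antibody, which makes 12 libraries. Whether the KO cells were 1 clone, and whether the 3 samples of a genotype came from separate cultures, was not given in the sources used here. Any p-value below therefore covers no more than the spread among these samples, and that spread may be technical. With no batch in the labels, an effect of preparation and one of genotype cannot be told apart.

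Matrix metalloproteinases (MMPs) are made as inactive precursors and, once active, cut collagens, gelatin and other matrix proteins. ADAM proteins sit in the cell membrane, and the active ones release the outer parts of growth factors, cytokines and receptors, a step called shedding. ADAMTS proteins are secreted and bind the matrix, where members cut proteoglycans or trim procollagen. The TIMPs are small secreted inhibitors that block the active site of these enzymes, and the balance of enzyme and inhibitor is a long-standing theme in kidney fibrosis because it sets how fast matrix is removed.

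Each sample gave 1 list of sites. A site is a stretch of a messenger RNA where the authors' caller found more IP than input signal, and the authors give it a fold enrichment (IP over input) of at least 2. The 6 lists held 13818 to 19136 sites in 6698 to 7894 genes. The WT lists gave NAT10 itself, the targeted gene, 11, 11 and 8 sites and the KO lists 2, 5 and 9, ranges that overlap, and a site count does not measure whether the gene was disrupted. Sites lay in 12 of 15 marker genes of the tubular epithelium and in 2 of 12 marker genes of other cells, PDGFRB and LYZ, each in all 6 lists. The tubular markers with a site numbered 5, 6 and 6 in the WT replicates against 8, 8 and 9 in KO, so these too differed between the genotypes, in the opposite direction to the members. The authors' false discovery rate was high: the lowest for a member site was 42.6%, 38.9% and 29.2% for the WT replicates and 14.1%, 16.1% and 11.3% for KO. The highest for a member site was 100% in every list but that of KO replicate 3, where it was 89%. The lists hold no read counts, so the depth behind a site is unknown. Nor do they hold RNA levels, so loss of acetylation and less RNA of the gene cannot be told apart in any result below. Coordinates are those of the files, with starts counted from 1. The submitters' processing notes name the build hg38, yet the GRCh38 spans of the named genes held only 12.9% to 13.5% of all sites in a list, so the coordinates are not those of GRCh38 and their build is not settled.

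Fewer member genes held a site in the KO lists than in the WT lists. Sites lay in 24, 25 and 23 member genes in WT replicates 1, 2 and 3 and in 11, 15 and 17 in KO replicates 1, 2 and 3. The groups do not overlap, and the means were 24 ± 1 and 14.3 ± 3.06 genes (SD, n = 3 lists each). Member sites numbered 64, 64 and 59 in WT and, without overlap again, 30, 46 and 51 in KO. Whole lists did not divide in this way, since the mean was 16646 sites in WT and 16942 in KO. Per 1000 sites of a list, member sites made up 3.65, 3.74 and 3.86 in WT and 2.17, 2.57 and 2.67 in KO. The replicate with the shortest KO list, replicate 1, also held the fewest member genes.

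Each of the 5 groups had more genes with a site per list in WT than in KO on average. The ADAM genes had the widest gap, at 8, 8 and 7 genes for the WT replicates against 2, 3 and 5 for the KO replicates. ADAMTSL genes numbered 4, 4 and 3 in WT and 2 in each KO list. MMP genes numbered 5 in each WT list and 3, 4 and 4 in KO. TIMP genes numbered 3 in each WT list and 2 in each KO list, and the ADAMTS groups met at 4 genes, with 4, 5 and 5 in WT and 2, 4 and 4 in KO.

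**Figure D1:**
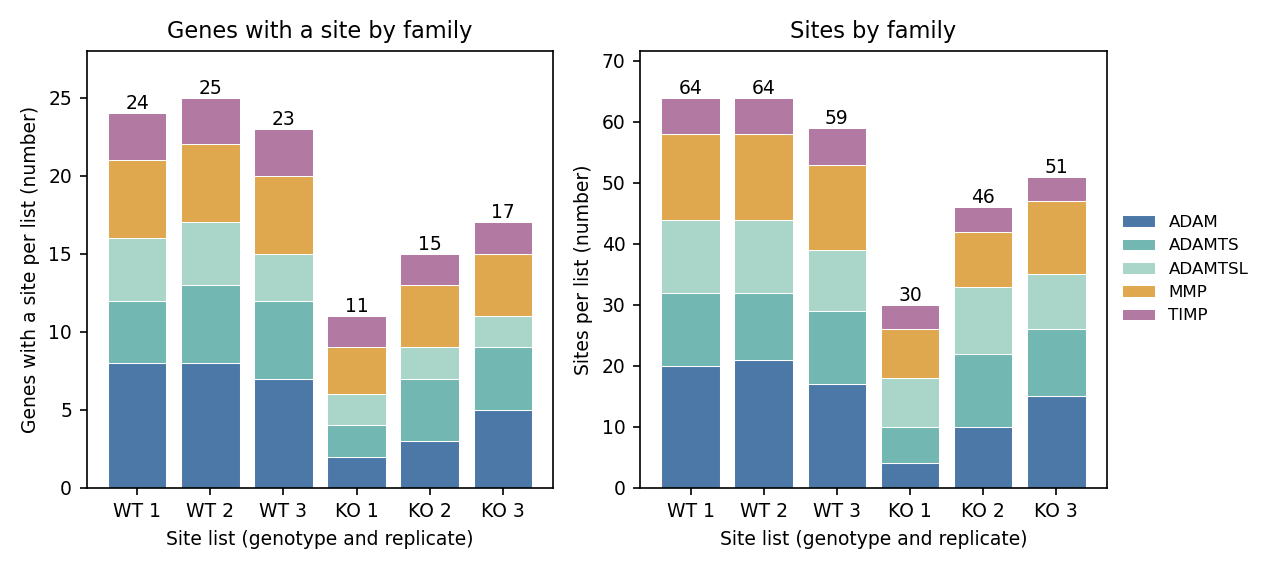
Number of genes with a site (left) and of sites (right) in each of the 6 lists, by gene group (ADAM, ADAMTS, ADAMTSL, MMP, TIMP). The total is 23 to 25 genes in every WT list and 11 to 17 in every KO list.

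Of the 27 members, 9 had a site in every WT list and in no KO list: ADAM7, ADAM9, ADAM20, ADAMTS9, ADAMTSL5, MMP16, MMP19, MMP23B and TIMP3. This is 33.3% of the members, where 11.8% of all genes with a site showed the pattern. The opposite pattern, a site in every KO and in no WT list, was found in MMP17 and MMP24, which is 7.41% of members beside 15% of all genes. Sites in all 6 lists were found in 8 members (29.6%, beside 38.9% of all genes): ADAM15, ADAM19, ADAMTS12, ADAMTSL1, ADAMTSL4, MMP2, TIMP1 and TIMP2. The remaining 8 members were in some lists of either or both genotypes: ADAM10, ADAM12, ADAM17, ADAMTS1, ADAMTS3, ADAMTS15, ADAMTSL3 and MMP14. These shares describe the lists, and no test was made over the members.

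Counted by the number of sites, 12 members had more sites in every WT list than in any KO list, which is 44.4% beside 23.1% of all genes. They are the 9 genes above with ADAM10, ADAMTS3 and TIMP1. The reverse held in 4 members (14.8%, beside 23.7% of all genes): ADAMTS12, MMP17, MMP24 and TIMP2. The other 11 overlapped between the genotypes. The mean number of sites was lower in KO for 18 of 27 members (66.7%), beside 4540 of all 10252 genes (44.3%), and the median difference per gene was -1 site in members and 0 over all genes. For each gene without overlap the two-sided exact permutation test gave p = 0.1, the smallest that 3 lists against 3 allow, so no single gene could pass a threshold of 0.05.

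**Figure D2:**
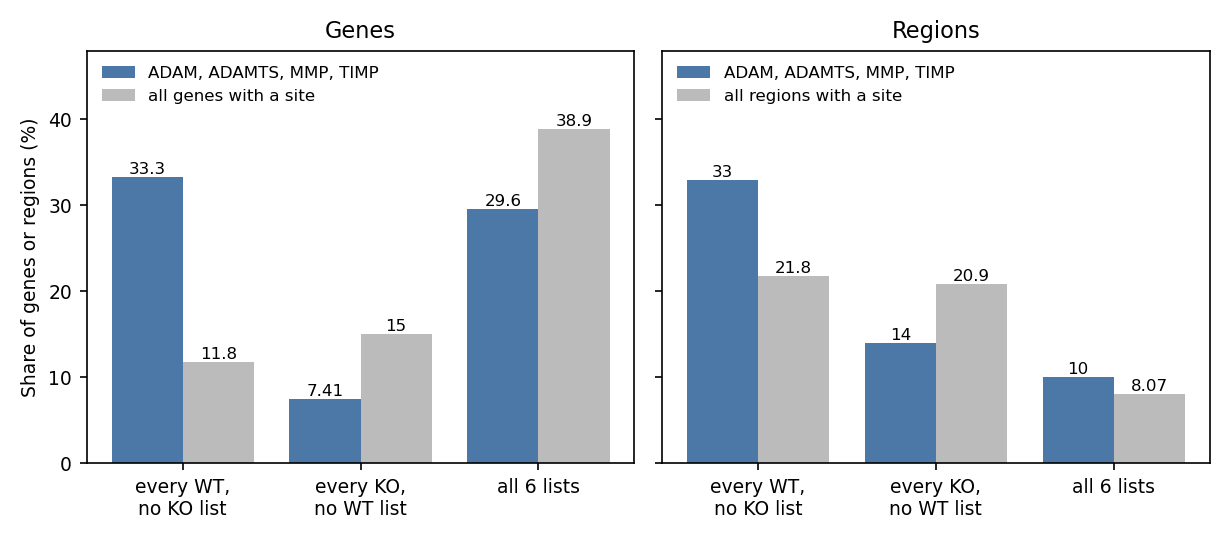
Percent that fall in each pattern of presence over the lists. The left panel gives the 27 members beside all 10252 genes with a site. The right panel gives the 100 member regions (sites of any list merged where they overlap) beside all 35919 regions. The share found in every WT and no KO list is 33.3% of members and 11.8% of all genes, and the share in every KO and no WT list is 7.41% and 15%.

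The inhibitors differed from each other. TIMP3 (GeneID 7078), the TIMP that binds firmly to the matrix and also inhibits ADAM17, held 2 sites in each WT list, and no KO list held any. Its stronger site, over the start codon (chr22:33197610-33198108), had folds of 14, 20 and 14 in WT, and the other lay in the coding sequence (CDS) with folds of 9.6, 11 and 10. Both TIMP3 sites were thus listed in all 3 WT lists, in the same places, but at high false discovery rates. These were 73.67%, 59.65% and 69.45% for the start-codon site and 97.12%, 90.51% and 100% for the CDS site. With every list held to the length of the shortest, the TIMP3 difference was -1 site in place of -2. TIMP3 lies within the span of another coding gene, SYN3, which held no site in any list.

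TIMP1 (GeneID 7076), a secreted inhibitor of most MMPs that is induced in injured kidney, held 3 sites in each WT list and 2 in each KO list. The site at its stop codon (chrX:47445920-47446190) was at the same place in all 6 lists, with folds of 84.6, 149 and 119 in WT and 5.66, 6.81 and 8.7 in KO. Its first start-codon site had folds of 35.3, 33.5 and 32.4 in WT and 4.3, 5.59 and 6.27 in KO. The sites that remained in KO were therefore listed with folds below 10 where the WT lists gave folds above 30. Folds are the authors' values within a list, and their difference between lists was not tested. A further site between these was in the WT lists only, with folds of 11.1, 13 and 15.8.

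TIMP2 (GeneID 7077), which inhibits MMPs and also helps MMP14 to activate MMP2, went the other way, with 1 site in each WT list and 2 in each KO list. Its start-codon site (chr17:76921041-76921272 at its highest) was in all 6 lists, with folds of 11, 17.9 and 16.6 in WT and 39.1, 44.5 and 48.7 in KO. The second KO site lay in the CDS with folds of 3.93, 2.98 and 3.54, and with only sites of fold 4 or more the difference in site number was 0. CEP295NL, which overlaps the TIMP2 span, was listed under its own name with 2, 2 and 2 WT sites, and 0, 3 and 3 in KO. TIMP4 had no site in any list.

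Among the shedding enzymes, ADAM10 (GeneID 102), which cuts Notch, cadherins and the amyloid precursor protein, had 3 sites per list throughout WT, and KO replicates 1, 2 and 3 listed 0, 0 and 1. The mean difference was -2.67 sites (exact permutation p = 0.1). Its strongest site lay in the CDS (chr15:58971389-58971481), with folds of 56.4, 59.1 and 59.8 in WT. A neighbouring CDS site had folds of 36.2, 54.2 and 40.6, and neither was in any KO list. The single KO site, at the start codon in replicate 3, had a fold of 3.47, beside 8.6, 8.35 and 11.3 at that place in WT.

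ADAM17 (GeneID 6868), the main enzyme that releases TNF and several ligands of the EGF receptor, held 2 sites in each WT list, against 0, 0 and 2 in KO. Its start-codon site had folds of 7.93, 7.05 and 11.3 in WT and 3.9 in KO replicate 3. The genotypes overlap because of that replicate, the difference of -1.33 sites had an exact permutation p = 0.4, and it was -2 without KO replicate 3. The ADAM17 span overlaps that of IAH1 on the other strand, which had no WT site and 1, 2 and 0 sites in KO under its own name. ADAM9 (GeneID 8754), another membrane sheddase, held 2 sites of low fold in each WT list and none in KO. The CDS site (chr8:38869177-38869232) had folds of 4.12, 2.9 and 3.57, and the start-codon site 3.37, 3.2 and 3.35. With only sites of fold 4 or more, ADAM9 was listed in WT replicate 1 alone and the difference was -0.333 in place of -2 sites. The ADAM9 span overlaps that of TM2D2, for which WT lists gave 4, 4 and 4 sites under its own name and KO lists 1, 1 and 2.

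ADAM7 and ADAM20, both known mainly from the male reproductive tract, held 1 site in each WT list and none in KO. The ADAM7 site, in the CDS (chr8:24321395-24321444 at its highest), had folds of 62.8, 83.9 and 81.3. The ADAM20 site had folds of 11.9, 13 and 18.3, and it lay in the CDS in WT replicates 1 and 3 (chr14:70990931-70991155) and reached to the start codon in replicate 2 (chr14:70990931-70991504). Neither gene was listed at more than this 1 place.

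ADAM19 (GeneID 8728), a membrane protease that can process neuregulin, had one of the highest site numbers among the members, with 8, 9 and 7 in WT against 2, 7 and 8 in KO. The mean difference of -2.33 sites (exact permutation p = 0.5) was -0.5 without KO replicate 1, -1 with lists of equal length and -1.33 with sites of fold 4 or more, so its size depended on that list and on both settings. Its 15 regions, a region being sites of any list merged where they overlap, mostly held sites of 1 genotype. Of these regions 7 held WT sites only, 6 held KO sites only, and 2 held both. Over all regions, both genotypes had a site in 33.8% of those with a WT site and 30.6% of those with a KO site. The strongest of the WT-only regions, in the CDS (chr5:156916110-156916188), had folds of 21.8, 21.9 and 25.3. The KO-only regions lay at higher coordinates, up to the start codon, than all but 1 of the WT-only ones. One CDS region (chr5:156932677-156932816) had folds of 12.2, 13.2 and 7.2 in WT and of 103 and 153 in KO replicates 2 and 3. KO replicate 1 also listed coordinates there, with no fold paired to them. The highest fold of any member, 200, belonged to an ADAM19 site of KO replicate 1 that could not be paired with its coordinates.

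ADAM15 (GeneID 8751), a membrane protease that also binds integrins, had 1 site in each WT list, against 2, 1 and 2 in KO. Its highest folds were 5.85, 6.73 and 4.13 in WT and 51.9, 33.7 and 32.6 in KO. The CDS region of the WT lists was also in KO replicates 2 and 3, and in replicate 1 the site of fold 51.9 lay in a neighbouring region. ADAM12, which sheds growth factor precursors, had 2, 2 and 0 WT sites against 0, 2 and 2 in KO, at different places: its 4 regions were each in 2 lists of 1 genotype. Most regions of all genes likewise held sites of 1 genotype only.

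**Figure D3:**
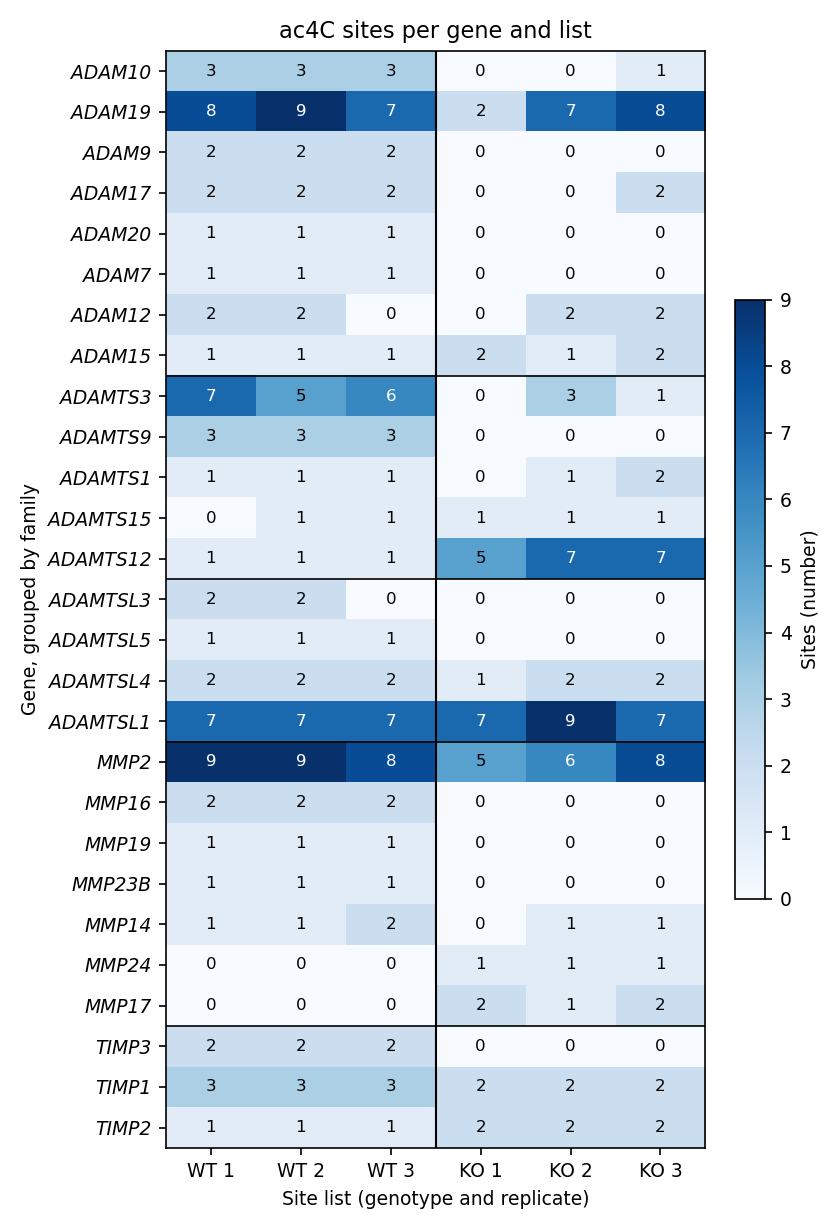
Number of sites of each of the 27 members in each of the 6 lists, WT replicates first. TIMP3, ADAMTS9, ADAM9 and MMP16 are empty in all KO lists, MMP17 and MMP24 are empty in all WT lists, and ADAMTS12 has 1 site in each WT list and 5 to 7 in the KO lists.

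In the ADAMTS group, ADAMTS9 (GeneID 56999), which cuts the proteoglycans versican and aggrecan, held 3 CDS sites in each WT list and none in KO. The highest (chr3:64532562-64532628) had folds of 42.3, 34.4 and 28 in its region. The other ADAMTS9 regions had folds of 12.2, 21 and 16, and of 11.2, 21 and 14.7. ADAMTS3 (GeneID 9508), a procollagen N-proteinase that also takes part in the activation of VEGF-C, had 7, 5 and 6 WT sites, and 0, 3 and 1 in KO. The mean difference was -4.67 sites (exact permutation p = 0.1). Its highest folds were 24, 25.2 and 30.7 in WT and 6.69 and 4.08 in KO replicates 2 and 3. Of its 9 regions, 6 had WT sites only, 2 had KO sites only and 1 had both. Most regions of all genes were also of 1 genotype: 33.8% of those with a WT site and 30.6% of those with a KO site held both. One of the KO-only regions (chr4:73186460-73186587) began just past a site of WT replicate 1 that ended at 73186449.

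ADAMTS12 (GeneID 81792), a matrix protease that cuts the cartilage protein COMP, was the reverse of ADAMTS3. It held 1 site in each WT list, against 5, 7 and 7 in KO, a mean difference of 5.33 sites (exact permutation p = 0.1), or 3.33 with lists of equal length. Of its 9 regions, 8 had KO sites only, and the WT site lay in the remaining one. Among all regions with a KO site, 30.6% also held a WT site. The WT site had folds of 3.01, 4.13 and 2.57. The strongest KO site, in the CDS (chr5:33624336-33624456), had folds of 56.7, 38.4 and 27.2, and the next 28.8, 20.1 and 18.5.

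ADAMTS1, which cuts versican and aggrecan, had 1 site per WT list and 0, 1 and 2 in the KO replicates, all in 1 region that spans the start codon. ADAMTS15, also a versican-cutting enzyme, had 0, 1 and 1 WT sites, and 1 in each KO list. Both genotypes placed the ADAMTS15 site in the 3′ untranslated region, and the WT and KO sites did not overlap, as in most regions of all genes. Neither gene's site numbers separated the genotypes.

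Of the ADAMTS-like genes, whose products lack protease activity and act in the matrix, ADAMTSL1 (GeneID 92949) held 7 sites in each WT list, against 7, 9 and 7 in KO. The numbers were near equal, and the placement was shared in part: of 12 regions, 3 had WT sites only, 5 had KO sites only and 4 had both. Over all regions, 33.8% of those with a WT site and 30.6% of those with a KO site held both. One region at a stop codon (chr9:18680310-18680699 at its highest) had folds of 7.38, 11 and 13.1 in WT and 82, 104 and 99 in KO. A CDS region of the same gene had folds of 33.6, 16.4 and 30 in WT and 4.01, 5.85 and 7.1 in KO. Within 1 gene, the region with the higher fold in the WT lists was thus not that of the KO lists.

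ADAMTSL4, a protein of the fibrillin network whose loss displaces the lens of the eye, had 2 sites in each WT list, against 1, 2 and 2 in KO. A stop-codon region was in every KO and no WT list, with folds of 37.4, 41.9 and 47.9. The strongest WT region, in the CDS, had folds of 26.4, 24.9 and 20 in WT and 4.24 in KO replicate 3. ADAMTSL3 had 2, 2 and 0 WT sites and none in KO. Both its sites carried the same score and fold within a list, so they may be pieces of 1 called stretch, and the same held for 2 ADAM12 sites in WT replicate 2 and 2 ADAMTSL1 sites in WT replicate 3. ADAMTSL5 had 1 short CDS site of 23 bases (chr19:1507997-1508019) in each WT list, with folds of 26.2, 19.1 and 14, and none in KO. With sites of at least 50 bases only, ADAMTSL5 had no site.

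Among the matrix metalloproteinases, MMP2 (GeneID 4313), the gelatinase that cuts type IV collagen of basement membranes, had more sites over the lists than any other member, 45. The WT replicates listed 9, 9 and 8 of them, the KO replicates 5, 6 and 8, a difference of -2.33 (exact permutation p = 0.2). Unlike those of ADAM19, its sites lay in the same places in both genotypes: of 10 regions, 8 held sites of both, 2 held WT sites only and none held KO sites only. The WT-only regions were at a stop codon (chr16:55536691-55536801), with folds of 15.9, 15.3 and 13.7, and in the CDS, with folds of 4.21, 5.26 and 5.62. Highest folds were 15.9, 15.3 and 13.7 in WT and 8.38, 9.16 and 14.8 in KO.

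MMP14 (GeneID 4323), the membrane-bound enzyme that activates MMP2, had 1, 1 and 2 WT sites against 0, 1 and 1 in KO. The WT sites lay at the end of the transcript, around the stop codon and in the 3′ untranslated region, with highest folds of 7.24, 8.38 and 7.03. The KO sites lay at the start codon, with folds of 3.66 and 3.53, so no region was shared although the site numbers overlap (exact permutation p = 0.6). Most regions of all genes were not shared either. MMP7 (matrilysin, an epithelial enzyme raised in fibrotic kidney) and MMP9 (the other gelatinase) had no site in any list.

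MMP16 (GeneID 4325), a membrane-bound MMP, held 2 sites in each WT list and none in KO, the higher at the start codon (chr8:89339555-89339717) with folds of 24.5, 25.2 and 20. MMP19, a secreted MMP, held 1 site at the stop codon in each WT list (chr12:56230706-56231103 at its highest), with folds of 14.3, 24.2 and 14.4. MMP23B held 1 CDS site in each WT list (chr1:1568360-1568483), with folds of 21.1, 17.1 and 22.8. MMP23B has a near-identical copy, MMP23A, so reads of that site could belong to either and its assignment is uncertain.

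MMP17 (GeneID 4326), an MMP anchored to the membrane by a lipid, was found in KO lists only, with 2, 1 and 2 sites. Its site in the 5′ untranslated region had folds of 7.71, 9.47 and 13.7. The stop-codon site (chr12:132335826-132336163) had folds of 77.1 and 58.4 in KO replicates 1 and 3 and was not listed in replicate 2. MMP24 (GeneID 10893), a membrane MMP best known from neurons, held 1 CDS site in each KO list (chr20:33859372-33859638), with folds of 7.38, 10.2 and 10.4. MMP24 overlaps MMP24OS on the other strand, and how strand was treated in calling sites was not given in the sources used here.

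**Figure D4:**
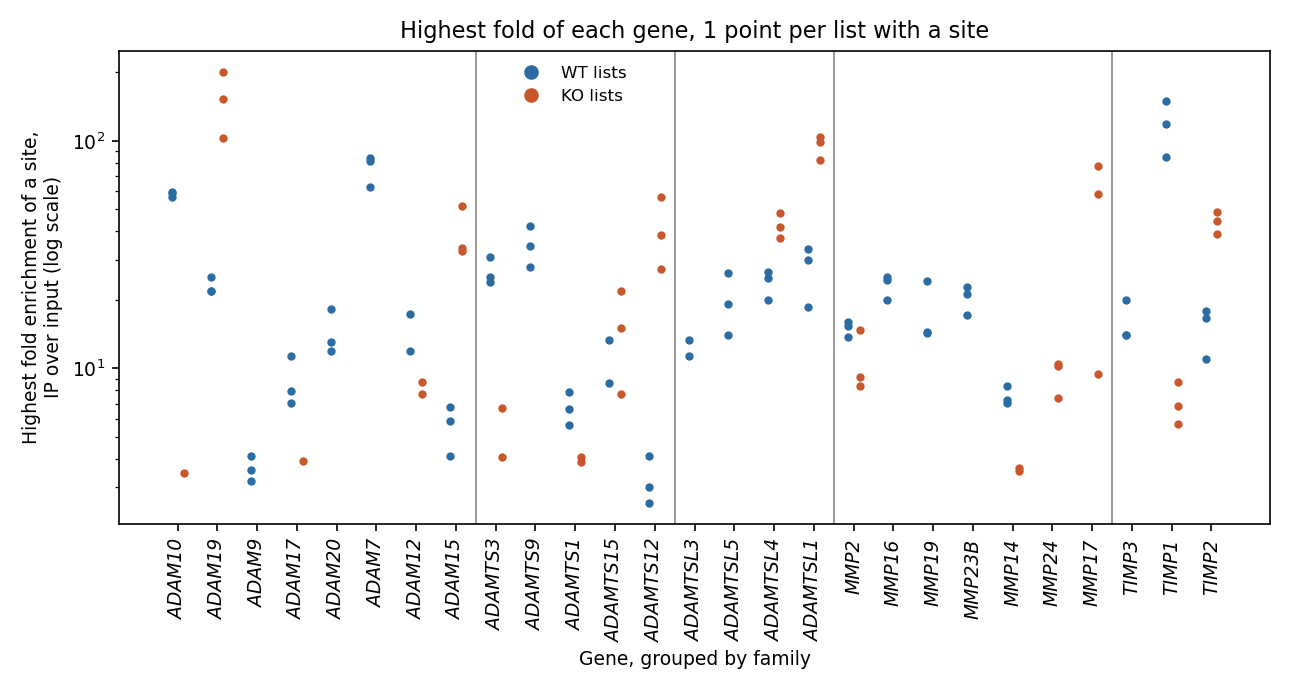
Highest fold enrichment of IP over input (log axis) of each member in each list, where it had a site. Of the 15 members listed in both genotypes, all WT folds lie above all KO folds in 7 (ADAM10, ADAM12, ADAM17, ADAMTS1, ADAMTS3, MMP14, TIMP1) and below them in 6 (ADAM15, ADAM19, ADAMTS12, ADAMTSL1, ADAMTSL4, TIMP2), and they overlap in 2 (ADAMTS15, MMP2). For ADAM10 and ADAM17 the KO fold is that of replicate 3 alone. ADAM12, ADAMTS12, ADAMTS15 and MMP14 shared no region between the genotypes, so their WT and KO folds come from different places. These are the authors' values within each list. The same order was not counted over all genes, so these counts are not shown to be particular to the members.

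Over all members, the sites of the 6 lists merged into 100 regions. Of these, 33 were in every WT and no KO list (33%, beside 21.8% of all 35919 regions) and 14 in every KO and no WT list (14%, beside 20.9%). A further 10 were in all lists (10%, beside 8.07%), and 43 had other patterns. Without KO replicate 1, the number in every KO and no WT list was 24. Both genotypes had a site in 24 regions, which is 35.8% of the 67 member regions with a WT site and 42.1% of the 57 with a KO site. For all regions these shares were 33.8% and 30.6%. The 15 members with sites in both genotypes held 81 regions, of which 19 were in every WT and no KO list and 12 in every KO and no WT list. Counting a site in any list of a genotype, 27 of the 81 had WT sites only, 30 had KO sites only and 24 had both.

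**Figure D5:**
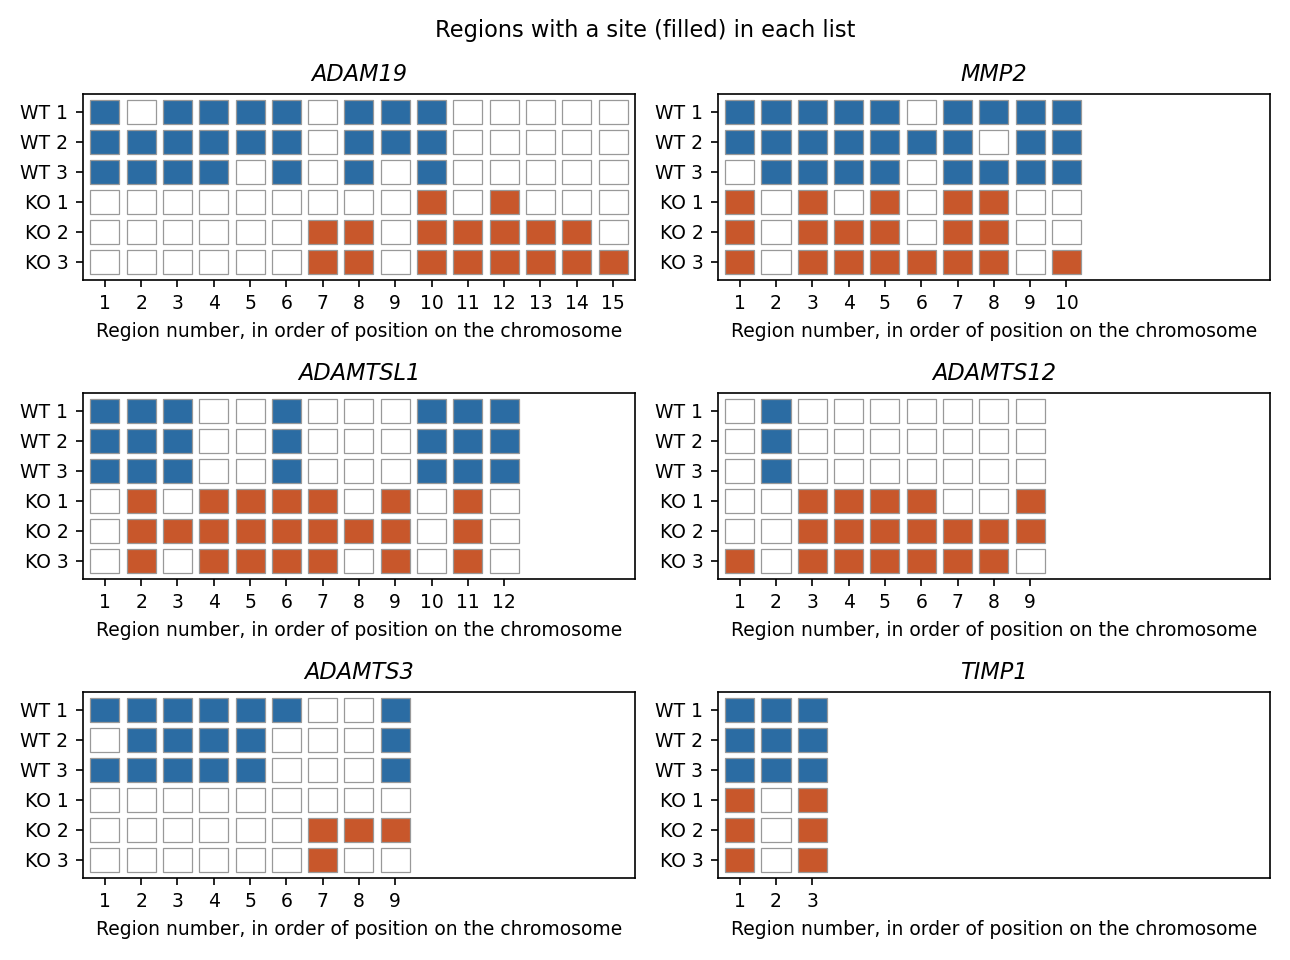
Presence of a site in each of the 6 lists for the merged regions of the 5 members with the most sites and of TIMP1, in order of position on the chromosome. MMP2 regions are mostly filled in both genotypes, whereas those of ADAM19, ADAMTS3 and ADAMTS12 are mostly filled in 1 genotype. Over all genes, both genotypes had a site in 33.8% of regions with a WT site and 30.6% of those with a KO site.

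Most member sites lay in the CDS in both genotypes. The CDS took 63 ± 3.28% of them in WT, against 63.9 ± 8.31% in KO (SD, n = 3), a difference within the spread of the KO lists, beside 56.6% and 56.2% of all sites. Start-codon sites made up 16.1 ± 0.764% and 14.9 ± 0.986%, beside 13.7% and 14.6% of all sites. Stop-codon sites made up 15 ± 0.816% and 15.5 ± 7.88%, beside 13.7% and 13.4%. No member site of the WT lists lay in the 5′ untranslated region, whereas 1, 1 and 2 sites of the KO lists did. The KO mean was 3.18% of member sites. All sites had 6.1% there in WT and 7.09% in KO, so members were below that share in both genotypes. The 3′ untranslated region held 5.95 ± 2.69% of member sites in WT and 2.53 ± 0.804% in KO, beside 9.97% and 8.76% of all sites.

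By fold, member sites stood above the middle of their lists in WT and close to it in KO. The median member fold was 11.3, 12.4 and 13.1 in the WT lists, where the median of all sites was 7.57, 7.68 and 8.32. In the KO lists the median member fold was 7.23, 6.26 and 7.76, where that of all sites was 7.8, 7.03 and 7.23. KO replicate 3 was the only KO list in which the member median was the higher one. Median site length was 146, 152 and 163 bases for members in WT and 172, 138 and 170 in KO, where all sites had medians of 162 to 178 bases, and in each list the member median was the shorter one.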

How the data were processed

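The 6 lists of acetylated RNA sites, 1 per pair of IP and input library, were analysed. Tools named without a role in the submitters' processing notes are HISAT2 2.0.4 and cutadapt 1.9.3, with the build hg38. Per the file headers, the authors called the sites with MACS, and how sites were limited to messenger RNA was not given in the sources used here. The deposited score equals 10 times the negative log10 of MACS's p-value, per the file headers. The deposited fold is the authors' ratio of IP over input. The authors deposited the false discovery rate in percent. These describe sites within a list.

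In KO replicate 1 the coordinate and gene columns stood in different row orders, with 1 row in order. They were rejoined on score and length, with ties settled by chromosome, which paired 13344 of 13818 rows and left 474 unpaired. Tested on simulated data (shuffled WT lists), the join paired at least 99.06% of rows, 100% of these correctly. A smaller share of rows paired in KO replicate 1, so the test does not show how many of its pairs are right. Over the lists, 17 empty rows were left out. Symbols were updated with RefSeq (GRCh38.p14). Sites overlapping by at least 1 base were merged into regions. The GRCh38 span of the named gene held 12.9% to 13.5% of sites, although at least 99.8% lay on its chromosome.

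Site numbers per gene were compared by a two-sided exact permutation test (Python 3.11.15, SciPy 1.17.1, pandas 2.3.3). Values over the members had no test. Every member with a site was named. Site numbers in each list were given by rule for members whose numbers did not overlap, all TIMP genes, ADAM10, ADAM17, MMP2, MMP7, MMP9, MMP14 and the 5 members with the most sites, and coordinates for members in all lists of 1 genotype only and the 5 of highest fold. Further values of other members were added after they were seen. Members and lists were chosen with earlier results of these data known.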

Additional observations from a re-analysis of the deposited data

How the results depend on the processing

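Site numbers of the members and the counts of members and regions by pattern, with the CDS share, were recomputed with sites of fold 4 or more, with every list held to its 13818 highest-scoring sites, with sites of at least 50 bases, and without each replicate in turn. The counts of regions were also recomputed with regions merged only where sites shared 50% of the shorter one, and the number of members per list with symbols as in the files. Medians of fold and length, the other transcript parts, the gene groups and the related genes were not recomputed. Of 103 alternatives to the summary values, 99 kept their direction and stayed within 1.5 times (counts) or 1 SD between lists (differences), 2 moved further and 2 reversed. The CDS share of member sites, KO minus WT, was 0.869 percentage points, -0.971 without WT replicate 3 and -3.06 without KO replicate 2, with a range of -3.06 to 5.22 when 1 replicate was left out and 3.37 with sites of at least 50 bases, so neither its sign nor its size was stable. Regions in every KO and no WT list numbered 14 to 24 when 1 replicate was left out, the 24 without KO replicate 1. Regions in all lists numbered 6 with lists of equal length, beside 10. The cause was not tested. Members in every WT and no KO list numbered 8 to 11, and those in every KO and no WT list 2, under every alternative. Of 270 alternatives for single genes, 255 kept their sign, 15 moved to or from 0 and none reversed. The 255 include the replicate block, 1 alternative per gene, whose difference equals the main one by arithmetic and could not change. Of the 255, 13 differed in size by over 1.5 times, in ADAM9, ADAM19, ADAMTS12, ADAMTSL1, ADAMTSL4, MMP14 and TIMP3. With the replicate number as that block the differences were thus the same (ADAM10, -2.67 sites), and the exact sign-flip p could not be below 0.25. The labels do not say that equal numbers mark a shared culture or day. Depth is unknown, so a site missing from a list is not shown to be absent.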

Other observations

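Of 54 genes that act with the metalloproteinases, in 6 lists of related function, 35 had a site, in 20, 20 and 22 genes of the WT lists and 26, 32 and 28 of the KO lists. All genes with a site also numbered more in KO, at a mean of 7417 per list against 7053 in WT. Of the 35, 2 were in every WT and no KO list (5.71%, beside 11.8% of all genes with a site) and 10 in every KO and no WT list (28.6%, beside 15%). More sites in every WT list than in any KO list were found in 6 (17.1%, beside 23.1%), and the reverse in 14 (40%, beside 23.7%), with no test over the list. In the plasminogen system (5 of 8 genes with a site), PLAU, the urokinase that makes plasmin, had 3, 2 and 2 WT sites against 0, 1 and 0 in KO. Among regulators of metalloproteinases (4 of 8), A2M, a broad protease trap, held no WT site and 1, 4 and 2 KO sites, and PCSK7, a proprotein convertase, held none in WT and 1, 1 and 2 in KO. Among astacins and procollagen proteinase enhancers (4 of 7), PCOLCE, which speeds procollagen trimming, held no WT site and 1, 2 and 2 KO sites. The related PCOLCE2 held 3, 3 and 2 WT sites and 0, 1 and 0 KO sites.

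Of the partners of ADAM10 and ADAM17, 8 of 9 had a site. TSPAN15, a tetraspanin that directs ADAM10, held 2 sites in each WT list and none in KO, whereas TSPAN5 held 1 in each KO list and none in WT. RHBDF1, an iRhom that carries ADAM17 to the surface, held none in WT and 1, 2 and 1 in KO. Of the shed substrates, 12 of 15 had a site. HBEGF, BTC and TNF each held 1 site in every KO list and none in WT, EREG held 1 in every WT list and none in KO, and APP held 3, 3 and 3 in WT and 6, 5 and 5 in KO. Of the proteoglycans cut by ADAMTS enzymes, 2 of 7 had a site: VCAN held 1 in each of the 6 lists, and BCAN held none in WT and 1, 2 and 2 in KO. Each gene whose numbers do not overlap has an exact permutation p = 0.1 at the least.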
